A study of Mus musculus with 24 samples.

Results

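The genes described here encode the enzymes that remove superoxide and peroxides and that make, recycle and spend glutathione. They were chosen by symbol alone, as protein-coding genes whose symbol begins with Gsta, Gstm, Gstp, Gstt, Gsto, Gstk, Gstz, Mgst, Gpx, Prdx or Sod followed by a digit, together with Gclc, Gclm, Gss, Gsr and Cat. The rule found 48 members among 55416 genes, and 37 of them had enough counts to be tested.

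RNA was sequenced from the muscle of 24 wild-type mice, with 6 males and 6 females in sham housing and the same numbers in SMC, which makes 4 groups. The labels give the strain as C56BL6J and the tissue as skeletal muscle, and the study's methods describe C57BL/6J mice bought at 8 weeks of age and gastrocnemius muscle. SMC mice lived for 8 weeks in a small mouse cage that leaves little room to move, while sham mice were ambulatory; some mice of both kinds were housed in pairs. No group carried a transgene. By the study's methods, mice of every group were fasted and then injected with ketamine and xylazine before tissue was taken. The study's question was how inactivity alters muscle metabolism in each sex, and the comparisons below ask whether these defence genes differed with housing, with sex, or with housing in a sex-dependent way.

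Superoxide dismutases turn superoxide into hydrogen peroxide. Catalase, glutathione peroxidases and peroxiredoxins then remove hydrogen peroxide. The glutathione peroxidases and peroxiredoxins, some of which also reduce lipid peroxides, use electrons that come from NADPH through glutathione or thioredoxin. Glutathione is built by glutamate-cysteine ligase and glutathione synthetase, is restored from its oxidized form by glutathione reductase, and is attached to reactive compounds by the glutathione transferases. Muscle fibres make superoxide in their mitochondria and during contraction, and many of these genes respond to the transcription factor NRF2, which binds antioxidant response elements.

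Libraries held between 23026627 and 36880413 counted reads, the sexes in the labels matched in 24 of 24 libraries, and no pair of libraries in a group agreed within sampling noise. Markers of muscle fibres summed to between 73242 and 153196 CPM (the reads of a gene scaled to the size of its library) in every library, so the labelled tissue was present throughout. The sum of 10 slow fibre markers was 86.4 CPM in male sham replicate 4 and 72.9 in female sham replicate 7, against 692 to 4459 in the other 22 libraries, and values without these libraries are given beside the results that moved when they were left out. Shares of all genes are given for the fit on all 24 libraries only. Counts of members from fits without libraries or with a covariate are therefore descriptions. Adipocyte markers summed to a median of 1800 CPM in male sham and 1614 in male SMC, against 3117 in female sham and 2879 in female SMC. Such a sum follows its most abundant genes. Male sham replicate 3 summed to 1545 CPM and replicate 6 to 1181, while the mean log2 CPM of the markers was 2.65 and 4.19. The covariates below use that mean. In bulk muscle, fewer cells of a type and less RNA per cell cannot be told apart.

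The promoters of 4 genes are shown because these genes recur in the comparisons below and their window holds the core of the antioxidant response element. The sequences are the 250 bases before the gene's start in RefSeq on GRCm38.p6, written 5′ to 3′ along the gene's strand, with the core TGACNNNGC, or its reverse complement, in capitals. Gclm encodes the modifier subunit of glutamate-cysteine ligase, Prdx1 a cytosolic peroxiredoxin, Sod1 the copper-zinc superoxide dismutase of the cytosol, and Mgst1 a membrane-bound glutathione transferase.
Gclm, chr3:122245307-122245556, + strand: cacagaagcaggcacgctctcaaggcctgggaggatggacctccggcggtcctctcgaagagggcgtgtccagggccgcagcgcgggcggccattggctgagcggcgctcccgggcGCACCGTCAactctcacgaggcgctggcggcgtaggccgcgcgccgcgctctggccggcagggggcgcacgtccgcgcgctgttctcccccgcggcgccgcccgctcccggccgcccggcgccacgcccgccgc
Prdx1, chr4:116685349-116685598, + strand: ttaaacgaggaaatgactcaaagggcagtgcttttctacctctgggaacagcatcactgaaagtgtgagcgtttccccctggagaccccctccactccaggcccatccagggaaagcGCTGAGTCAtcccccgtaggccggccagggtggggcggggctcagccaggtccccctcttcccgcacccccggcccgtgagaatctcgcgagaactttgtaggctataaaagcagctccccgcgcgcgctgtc
Sod1, chr16:90220512-90220761, + strand: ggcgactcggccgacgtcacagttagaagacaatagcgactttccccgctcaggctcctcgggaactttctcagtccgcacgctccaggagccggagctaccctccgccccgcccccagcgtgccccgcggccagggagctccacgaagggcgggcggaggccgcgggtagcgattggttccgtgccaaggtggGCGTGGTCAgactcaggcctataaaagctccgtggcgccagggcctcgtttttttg
Mgst1, chr6:138140277-138140526, + strand: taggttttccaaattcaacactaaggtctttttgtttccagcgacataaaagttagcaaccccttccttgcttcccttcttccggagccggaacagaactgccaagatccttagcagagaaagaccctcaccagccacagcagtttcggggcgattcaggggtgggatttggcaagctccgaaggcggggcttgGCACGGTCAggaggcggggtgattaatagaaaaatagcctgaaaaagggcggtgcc

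The core begins 134 bases before the start in Gclm, 133 in Prdx1, 56 in Sod1 and 56 in Mgst1. In GENCODE M21, the annotation used for the exon lengths, Mgst1 begins at chr6:138140316. That start lies within the window and before the core, so the core is inside the gene by that annotation. Windows were found for 41 of the 48 members, and 7 of these (17.1%) held the core on either strand, the others being Gsta3, Gstm5 and Gstm7. Among all 27025 genes with a window, 3112 (11.5%) held it. A match to these letters is a description of the sequence, not evidence of binding.

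The defence genes differed widely in level. Per kilobase of exon, the glutathione peroxidases held 27.6% of the level summed over all members, the peroxiredoxins 21.2% and the mu class glutathione transferases 16.9%. The microsomal transferases held 9.09%, the pi class 6.96%, the superoxide dismutases 6.13%, catalase 4.97%, and the omega, kappa and zeta classes 3.69%. The 4 genes of glutathione synthesis and recycling held 2.21%, the alpha class 0.742% and the theta class 0.542%.

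Gpx3, which encodes the secreted glutathione peroxidase, had the highest mean level per kilobase at 101.6 CPM per kb. Next came Gstm1 at 66.2, Gpx4, which reduces lipid peroxides in membranes, at 62.0, and Prdx3, the peroxiredoxin of mitochondria, at 61.2 CPM per kb. Gstm1, Gpx4 and Prdx3 differ by less than the 12.2% coefficient of variation of Gstm1 within groups. Mgst3 followed at 53.7, Cat at 32.4, Gstp1 at 29.1 and Sod2, the manganese superoxide dismutase of mitochondria, at 23.6 CPM per kb. The leading member of the remaining roles was lower, with Gstk1 at 10.2, Gsr at 7.21, Gsta4 at 4.72 and Gstt1 at 2.18 CPM per kb. The length used is that of all annotated exons of a gene, merged, which can exceed its longest transcript. It was 1724 against 995 bases for Gpx4, 1548 against 821 for Gstp1 and 10008 against 5861 for Sod2. The order of the members and the shares by role depend on that length.

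**Figure D1:**
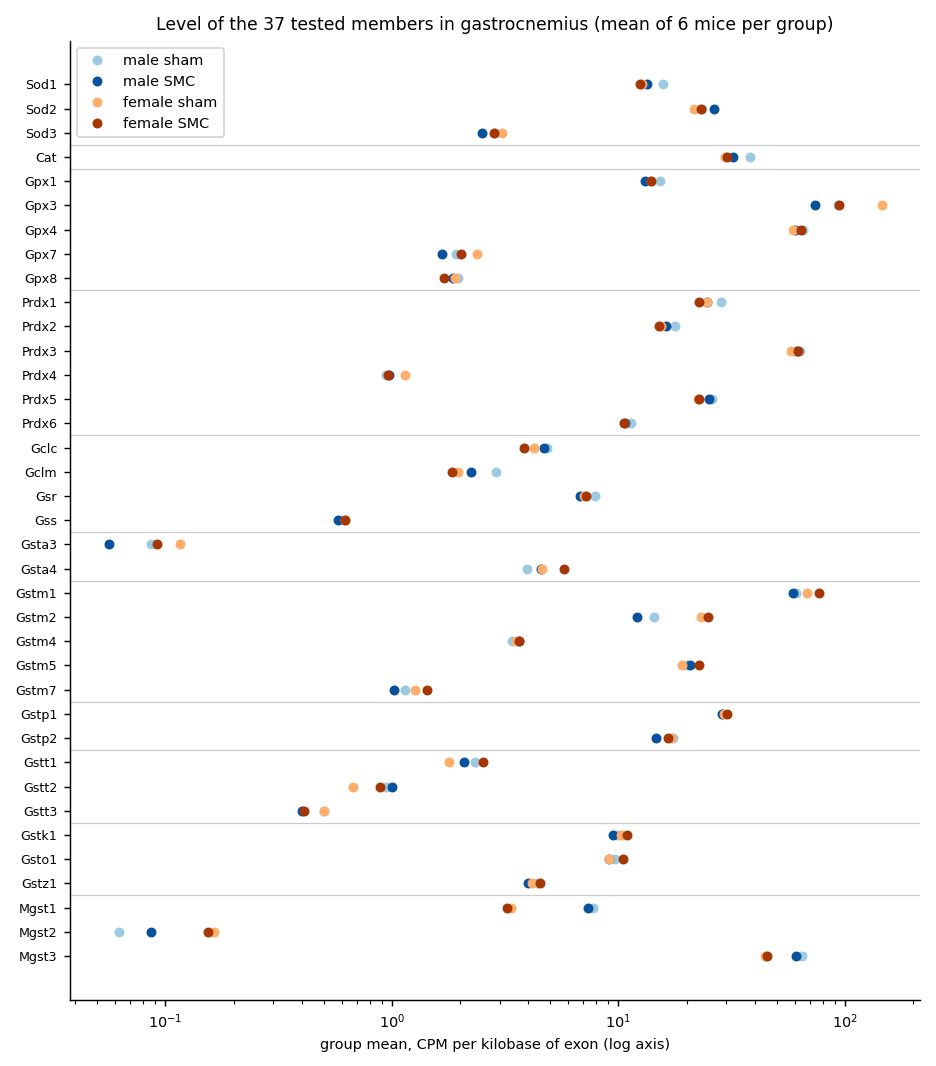
Mean level of the 37 tested members in each of the 4 groups, in CPM per kilobase of exon on a log axis, with 1 point per group of 6 mice and rules between roles. Gpx3 is highest at 101.6 CPM per kb over all mice and Gsta3 lowest at 0.0879. The 4 points of most members lie close together, while those of Mgst1, Gstm2 and Gpx3 spread by group, as do those of Mgst2 and Gsta3, which have few counts.

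Without regard to length, Sod2 took the most reads, at 236 CPM over the 24 mice. Within groups, the coefficient of variation ran from 7.06% for Prdx1 to 73.1% for Gsta3, with a median of 18.3%. The 11 members that were not tested were Gpx2, Gpx5, Gpx6, Prdx6b, Gsta1, Gsta2, Gstm3, Gstm6, Gstp3, Gstt4 and Gsto2. Their counts did not pass 10 in any library, and Gpx5 and Prdx6b were at 0 in all of them. Gsta3 and Mgst2 passed the filter narrowly, with 2 to 30 and 3 to 30 counts per library.

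Reads of some members could be shared with near copies. Of the 50-base words in the longest transcript, 61.7% in Gpx4 also occur in other genes, chiefly the pseudogene Gpx4-ps2. For Gstp1 the share was 62.3% and for Gstp2 72.6%, almost all with each other, so their separate levels are uncertain. It was 23.1% for Gstm1, 10.9% for Prdx1, 9.36% for Gstm2 and 2.45% for Sod1, and 0% for Mgst1, Mgst2, Mgst3, Gpx3, Gsr and Cat. Exons of Prdx5, Gstm5 and Gstz1 overlap a gene on the other strand by 19.1%, 13.9% and 9.14% of their length, and the strand setting of the counting was not given in the sources used here.

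More of these genes passed the test between the sexes than between the housings. Averaged over housing, 8 of the 37 tested members differed between males and females at a false discovery rate (FDR) under 0.05, against 4.93% of all genes tested. Mgst1, Mgst3, Gclm and Prdx1 were higher in males, against 2.39% of all genes, and Gstm2, Gstm1, Mgst2 and Gpx3 were lower in males, against 2.54%. One of the 8, Mgst2, entered the test mainly through the females, where it is higher, so it adds no support to the count, which is 7 without it. By role, the microsomal transferases Mgst1 and Mgst3 passed beside Mgst2, as did 2 of 5 mu class transferases and 1 each of the glutathione peroxidases, the peroxiredoxins and the synthesis genes, and none of the superoxide dismutases, catalase or the other transferase classes did. At an unadjusted p under 0.05 the count was 13 members, against 19.3% of all genes. Without the pair of libraries low in slow fibre markers, 9 members passed, the same 8 and Sod1, with no share of all genes beside that count.

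Mgst1, a microsomal transferase of the endoplasmic reticulum and outer mitochondrial membrane that also reduces lipid peroxides, was higher in males. It spanned 12.9 to 22.8 CPM across male sham mice (median 14.5) and 10.2 to 18.98 across male SMC mice (median 15.4). In females it spanned 3.95 to 9.59 CPM across sham mice (median 6.81) and 4.99 to 8.18 across SMC mice (median 6.21). All 12 males lay above all 12 females, which held for 0.171% of all genes tested. The log2 fold change of males against females was 1.19 (SE 0.144, FDR 7.23e-06 in edgeR).

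Mgst3, another membrane-bound transferase, was also higher in males. Its median was 72.5 CPM in male sham (61.7 to 76.1) and 68.3 in male SMC (53.4 to 75.8), against 49.4 in female sham (42.6 to 55.0) and 50.6 in female SMC (43.0 to 55.6). The sham groups did not overlap, as for 0.609% of all genes, and the SMC groups overlapped through male SMC replicate 14. Males exceeded females by 0.49 on the log2 scale (SE 0.0624, FDR 1.61e-05 in edgeR).

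Mgst2, the third microsomal transferase, went the other way, with a log2 fold change of -1.11 (SE 0.291, FDR 0.0251 in edgeR). It was barely detected, at 0.105 to 0.488 CPM in males and 0.197 to 1.09 CPM in females. Only 2 of the 12 male libraries held 10 counts or more, against 9 of the 12 female libraries, so it passed the filter mainly through the females.

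In the mu class, Gstm2 was lower in males. Its median was 21.8 CPM in male sham (17.6 to 36.7) and 21.1 in male SMC (14.9 to 24.2), against 37.2 in female sham (29.4 to 56.0) and 39.7 in female SMC (36.0 to 54.6). Within the SMC mice every male lay below every female, as for 0.872% of all genes, and within the sham mice male sham replicate 4 overlapped the females. Gstm2 thus had a log2 fold change of -0.86 (SE 0.117, FDR 3.74e-05 in edgeR). Gstm1, its abundant neighbour on chromosome 3, had medians of 83.7 and 84.4 CPM in male sham and SMC and of 99.3 and 111 in female sham and SMC, and a log2 fold change of -0.26 (SE 0.0691, FDR 0.0250 in edgeR). The males and females of Gstm1 overlapped in sham and did not overlap in SMC. Averaged over housing, all 5 tested mu class genes had lower values in males than in females, against 51% of all genes. Within sham mice 4 were lower in males and 1 was higher.

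**Figure D2:**
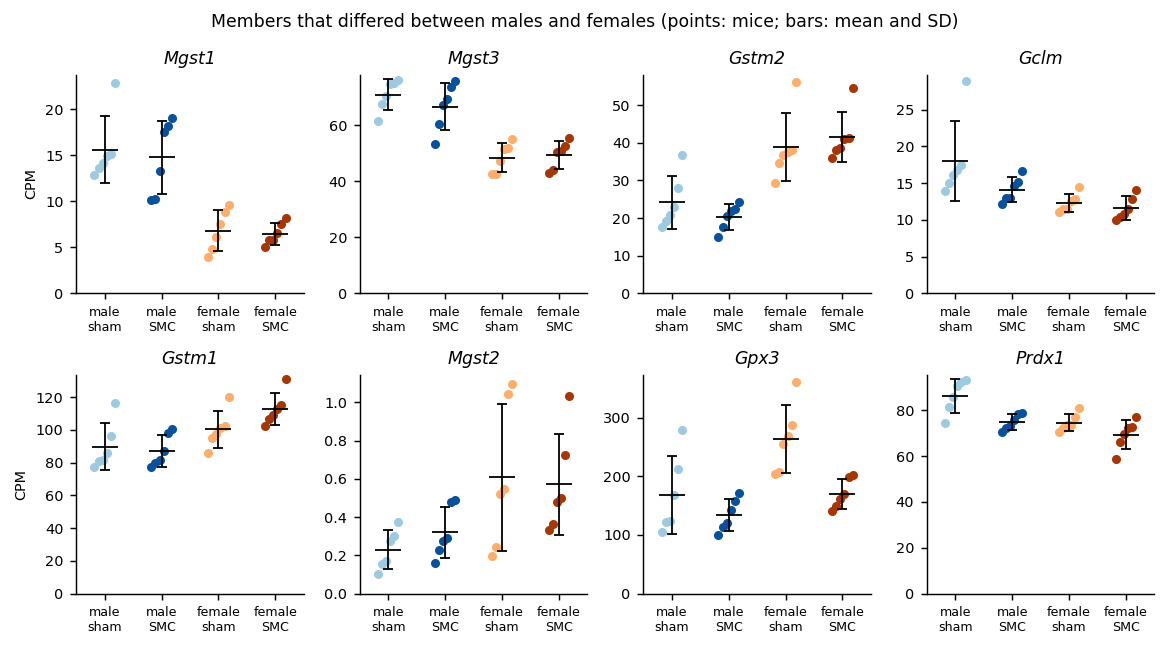
CPM of the 8 members that differed between males and females, with 1 point per mouse, a horizontal bar at the group mean and error bars of 1 SD. The 12 males sit above the 12 females for Mgst1, from 10.2 to 22.8 against 3.95 to 9.59 CPM, while the sexes overlap in the other 7 panels.

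Gclm, on chromosome 3, was higher in males, with medians of 16.5 CPM in male sham (13.997 to 28.9) and 13.8 in male SMC (12.1 to 16.7), against 12.04 in female sham (11.03 to 14.5) and 11.1 in female SMC (9.95 to 14.1). Its log2 fold change was 0.42 (SE 0.0963, FDR 0.0113 in edgeR), and 0.33 (FDR 0.00379) without male sham replicate 4, the highest of the males. Prdx1 was higher in males by 0.16 on the log2 scale (SE 0.0468, FDR 0.0468 in edgeR), with medians of 88.2 and 74.4 CPM in male sham and SMC and of 73.5 and 70.9 in female sham and SMC. Gpx3 was lower in males, with a log2 fold change of -0.50 (SE 0.139, FDR 0.0373 in edgeR).

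Markers of fat and of other cell types also had different values in males and females. Of the 8 adipocyte markers, 7 had lower values in males and 2 passed the test, with a median log2 fold change of -0.98. With the adipocyte level as a covariate, an alternative added after the data were seen, Mgst1, Mgst3, Gstm2 and Gclm stayed under an FDR of 0.05. The log2 fold change of Gpx3 became -0.33 (FDR 0.242), that of Mgst2 -0.85 (FDR 0.202), that of Gstm1 -0.22 (FDR 0.151) and that of Prdx1 0.14 (FDR 0.188). Prdx1 passed in 6 of 24 fits that each left out 1 library, and Gpx3 in 13 of 24.

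Within sham mice alone, 4 members differed between the sexes, namely Mgst3, Mgst1, Gstm2 and Gclm, against 1.97% of all genes. Within SMC mice alone, 3 did, namely Gstm2, Mgst1 and Mgst3, against 1.03%. The log2 fold change of Mgst1 was 1.19 in both housings (SE 0.203 in sham and 0.205 in SMC). That of Gstm2 was -0.68 (SE 0.164) in sham and -1.04 (SE 0.166) in SMC, and that of Gclm was 0.55 (SE 0.136) in sham and 0.28 (SE 0.137) in SMC.

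In males, no member passed an FDR of 0.05 in edgeR between SMC and sham, and none of all 16408 genes passed in that contrast (0%). DESeq2 and voom also called 0 members. At an unadjusted p under 0.05, 4 of the 37 members passed, all with lower values in SMC, against 5.59% of all genes in that direction. These were Prdx1, Sod1, Gclm and Gsr. Without male sham replicate 4 and female sham replicate 7, 5 members had an unadjusted p under 0.05, with lower values for Prdx1, Sod1, Prdx2 and Gstz1 and higher values for Gstm4, and Gclm and Gsr were no longer among them. The share of all genes in that fit is not given here, so the count of 5 is a description. Values were lower in SMC than in sham for 29 of the 37 tested members, at a median of -0.10 on the log2 scale, against 50.9% of all genes and a median of -0.0044. Without that pair of libraries, 28 of 37 were lower, with a median of -0.13.

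Markers of other cells moved with housing in males, with 0 past the test in each list. All 8 red blood cell markers had lower values in SMC (median -0.46 on the log2 scale), with sums of 177 to 1596 CPM in sham and 270 to 1225 in SMC males. All 8 adipocyte markers were lower in value (median -0.35), with sums of 1181 to 2755 CPM in sham and 1211 to 2140 in SMC males. All 8 macrophage markers were lower in value (median -0.19), with sums of 76.3 to 139 and 74.5 to 105 CPM, while all 8 Schwann cell markers were higher in value (median 0.41), with sums of 47.96 to 98.97 and 83.2 to 134 CPM. Of the 10 slow fibre markers 7 were higher and 3 lower in value (median 0.57), with sums of 86.4 to 2338 CPM in sham and 692 to 3170 in SMC males. With the red blood cell level as a covariate 31 of 37 members had lower values in SMC males (median -0.082), and with the adipocyte level 29 did (median -0.12). The part of macrophages and Schwann cells was not tested.

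Prdx1 spanned 74.5 to 93.2 CPM across male sham mice (median 88.2) and 70.6 to 78.9 across male SMC mice (median 74.4). Sham replicate 5, at 74.5 CPM, lay within the SMC range, and the other 5 sham males lay above every SMC male. Prdx1 had a log2 fold change of -0.21 (SE 0.0662, FDR 0.240 in edgeR). It was -0.20 (FDR 0.258) without the pair of libraries low in slow fibre markers.

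Sod1 spanned 52.7 to 84.9 CPM across male sham mice (median 59.6) and 49.8 to 57.7 across male SMC mice (median 51.9), with a log2 fold change of -0.24 (SE 0.0882, FDR 0.305 in edgeR). Gclm had a log2 fold change of -0.36 (SE 0.135, FDR 0.317 in edgeR). Gsr, which encodes glutathione reductase, spanned 17.2 to 31.2 CPM across male sham mice (median 20.1) and 16.4 to 20.2 across male SMC mice (median 18.9), with a log2 fold change of -0.22 (SE 0.0983, FDR 0.391 in edgeR). Male sham replicate 4 was the highest of the group for all 3 genes. Without it the log2 fold changes were -0.14 for Sod1, -0.19 for Gclm and -0.10 for Gsr.

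**Figure D3:**
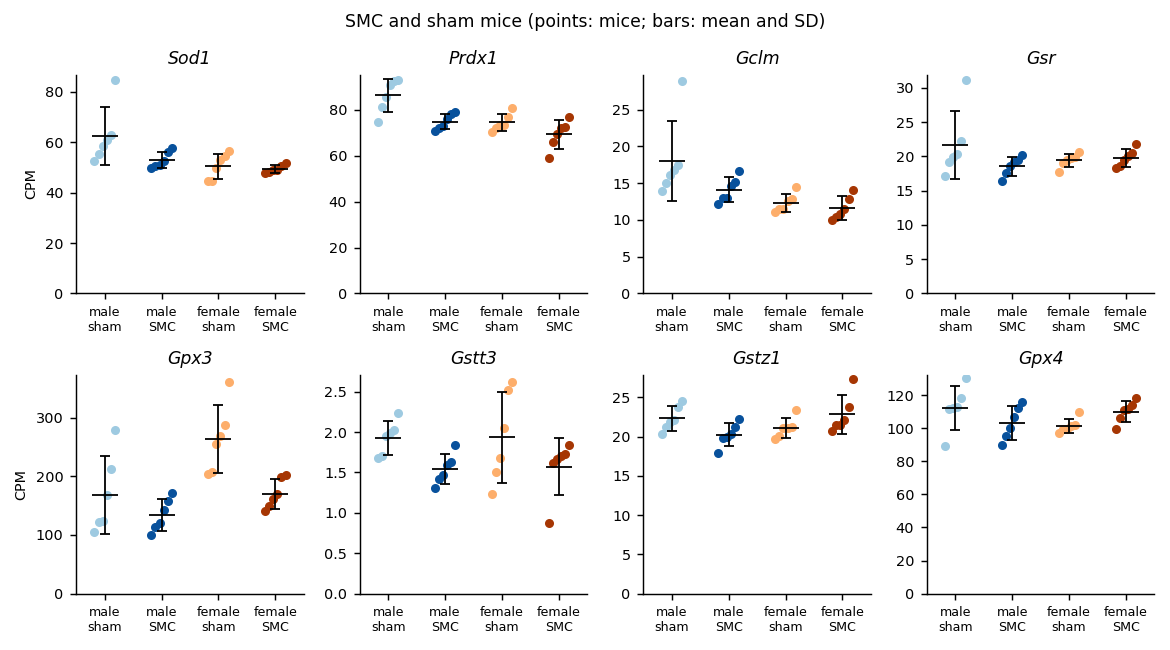
CPM of 8 members whose SMC contrasts had the lowest unadjusted p-values in males, over both sexes or between the sexes, with 1 point per mouse, a bar at the group mean and error bars of 1 SD. The 6 SMC females lie below the 6 sham females for Gpx3, from 141 to 203 against 204 to 360 CPM, and 1 sham male stands above the others for Sod1, Gclm and Gsr.

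In SMC females, no member passed an FDR of 0.05, against 0.341% of all genes, and DESeq2 and voom called 0 as well. At an unadjusted p under 0.05, Gpx3 had lower values and Gstm5 and Gstt1 had higher values in SMC, 3 of 37 members against 12.5% of all genes. Values were higher in SMC for 22 members, against 47.6% of all genes, and lower for 15, with a median log2 fold change of 0.017, against -0.011 over all genes. All 5 tested mu class genes had higher values in SMC females, from 0.062 on the log2 scale for Gstm4 to 0.24 for Gstm5, and among them Gstm5 had an unadjusted p under 0.05. Without the pair of libraries low in slow fibre markers, 5 members had an unadjusted p under 0.05, with lower values for Gpx3 and Gclc and higher values for Gsta4, Gstm1 and Gstm5, and Gstt1 was no longer among them. That count has no share of all genes beside it. In that fit the log2 fold changes in females were 0.23 for Gstm1, 0.20 for Gstm4 and 0.39 for Gsta4.

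Gpx3 spanned 204 to 360 CPM across female sham mice (median 262) and 141 to 203 across female SMC mice (median 166). The 6 SMC females all lay below the 6 sham females, as for 0.634% of all genes. Gpx3 had a log2 fold change of -0.63 (SE 0.197, FDR 0.145 in edgeR), and -0.62 (FDR 0.0814) without the pair of libraries low in slow fibre markers. In males Gpx3 spanned 105 to 279 CPM across sham mice (median 146) and 99.6 to 172 across SMC mice (median 131), with a log2 fold change of -0.33 (SE 0.196, FDR 0.566 in edgeR), or -0.14 without male sham replicate 4.

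Gpx3 is a gene of several cell types, and markers of other cells moved with housing in females. The 8 fibroblast markers summed to a median of 1309 CPM in female sham (547 to 1824) and 860 in female SMC (643 to 987), and 7 of 8 had lower values in SMC, with 0 past the test. Of the 8 tendon cell markers 7 had lower values in SMC (median log2 fold change -0.87), and they summed to 209 to 833 CPM in female sham and 134 to 414 in female SMC. The 8 adipocyte markers summed to 2377 to 3959 CPM in female sham and 2721 to 3715 in female SMC, and 7 of 8 had higher values in SMC (median 0.55). All 10 slow fibre markers had higher values in SMC females (median 0.61), with sums of 72.9 to 3123 CPM in sham and 1491 to 4459 in SMC. None of these lists held a gene past the test in females, and the part of tendon cells was not tested. With the adipocyte level as a covariate the log2 fold change of Gpx3 over both sexes was -0.46 (FDR 0.0472), and with the fibroblast level it was -0.52 (FDR 0.0490). Over both sexes Gpx3 passed in 3 of 10 other settings and in 4 of 24 fits that each left out 1 library. In females alone it passed in 0 of 11 settings and in 0 of 24 such fits.

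Gstm5 had medians of 23.5 CPM in female sham (20.7 to 30.3) and 28.4 in female SMC (24.3 to 34.7), with a log2 fold change of 0.24 (SE 0.0999, FDR 0.292 in edgeR). Gstt1, a theta class transferase, had medians of 2.80 CPM in female sham (1.36 to 3.86) and 3.99 in female SMC (2.16 to 5.60), with a log2 fold change of 0.49 (SE 0.233, FDR 0.393 in edgeR). Without that pair of libraries the values were 0.32 for Gstm5 (FDR 0.107) and 0.36 for Gstt1 (FDR 0.434). The groups overlapped for both genes.

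**Figure D4:**
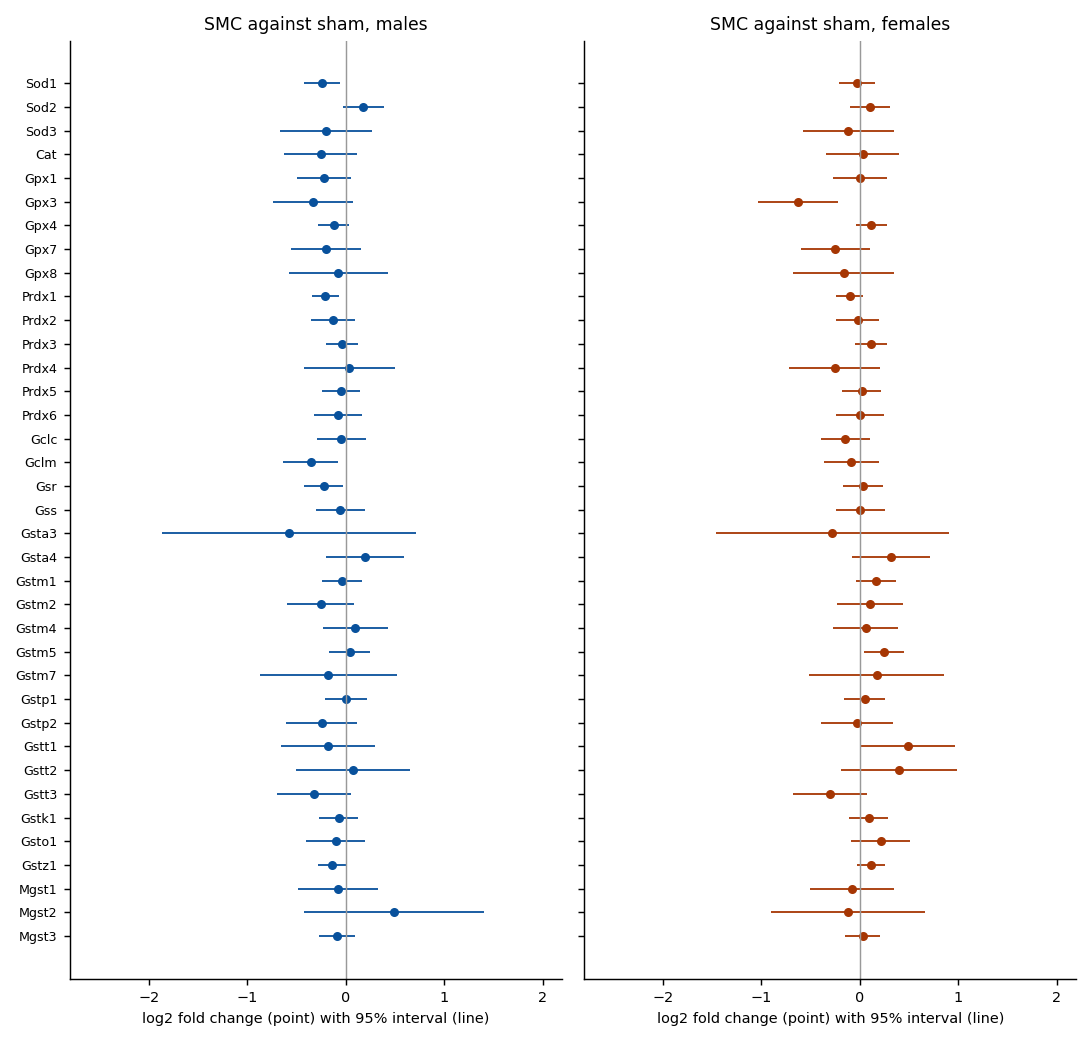
Log2 fold change of SMC against sham for the 37 tested members, in males on the left and in females on the right, with 95% intervals as lines. In males 29 points lie below 0 and 8 above, in females 15 below and 22 above, and the Gpx3 interval in females runs from -1.03 to -0.22.

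Averaged over the sexes, no member passed an FDR of 0.05, against 2.36% of all genes. At an unadjusted p under 0.05, 5 members had lower values in SMC, against 9.65% of all genes in that direction. Gpx3 had a log2 fold change of -0.48 (SE 0.139, FDR 0.0631 in edgeR) and Prdx1 one of -0.16 (SE 0.0468, FDR 0.0731 in edgeR). Without the pair of libraries low in slow fibre markers the values were -0.38 for Gpx3 (FDR 0.0855) and -0.14 for Prdx1 (FDR 0.0923). Both genes passed in DESeq2, at FDR values of 0.0222 and 0.0319, and voom called 0. Of 24 fits that each left out 1 library, Gpx3 passed in 4 and Prdx1 in 1. Gstt3, a low theta class gene with 0.872 to 2.62 CPM per mouse, had a log2 fold change of -0.32 (SE 0.129, FDR 0.194), Gclm one of -0.22 (SE 0.0962, FDR 0.225) and Sod1 one of -0.13 (SE 0.0624, FDR 0.263). Without male sham replicate 4 the value was -0.13 for Gclm and -0.083 for Sod1. Without the pair of libraries low in slow fibre markers it was -0.13 for Gclm (FDR 0.314) and -0.072 for Sod1 (FDR 0.412), and neither kept an unadjusted p under 0.05. In that fit 8 members had one, 4 with lower values in SMC, namely Gpx3, Prdx1, Prdx2 and Gstt3, and 4 with higher values, namely Gsta4, Gstm1, Gstm4 and Gstm5. The share of all genes in that fit is not given here, so the count of 8 cannot be set against the count of 5 above.

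Cat and Sod2, which are abundant in muscle, did not pass under SMC. The 95% interval of the log2 fold change averaged over the sexes ran from -0.37 to 0.15 for Cat and from -0.0031 to 0.29 for Sod2. Cat had medians of 96.5 and 78.5 CPM in male sham and SMC, and of 81.3 and 79.1 in female sham and SMC. Sod2 had medians of 243 and 275 CPM in male sham and SMC, and of 226 and 225 in female sham and SMC.

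No member differed between the sexes in its response to SMC at an FDR under 0.05, and 0% of all genes did. DESeq2 and voom called 0 too. At an unadjusted p under 0.05, 2 members passed, Gstz1 and Gpx4, against 5.13% of all genes. Gstz1, an enzyme of tyrosine breakdown, had medians of 21.99 and 20.2 CPM in male sham and SMC and of 21.1 and 21.8 in female sham and SMC, with an interaction on the log2 scale of -0.26 (SE 0.0990, FDR 0.926 in edgeR). Gpx4 had medians of 112 and 104 CPM in male sham and SMC and of 101 and 111 in female sham and SMC, with an interaction of -0.24 (SE 0.108, FDR 0.946 in edgeR). The interaction was below 0 for 29 of 37 members, with a median of -0.12, against 48.4% of all genes and a median of 0.0084. Without the pair of libraries low in slow fibre markers it was below 0 for 27 of 37, with a median of -0.14. The interaction was also below 0 for all 8 red blood cell markers (median -0.51) and for 7 of 8 adipocyte markers (median -0.93), with 0 past the test. With the red blood cell level as a covariate it was below 0 for 27 of 37 members (median -0.079), and with the adipocyte level for 25 (median -0.15).

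Around these enzymes stand the thioredoxin system, the makers of NADPH, the metallothioneins and the regulators of the antioxidant response, of which 44 of 45 listed genes were tested. Averaged over the sexes, 7 of the 44 differed with SMC, all lower, against 1.33% of all genes in that direction. The list was chosen with earlier results of these data known, so this count is a description and no test of the list. Mt2 and Mt1 encode metallothioneins that bind zinc and copper, Sesn1 a stress-induced sestrin, Txn1 the thioredoxin that gives electrons to peroxiredoxins, and Chac2 an enzyme that breaks down glutathione. Ccs, the copper chaperone of Sod1, and Bach1, a repressor at antioxidant response elements, also passed, and are named outside the rule of 5 per comparison, after their values were seen.

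Mt2 spanned 3.93 to 15.7 CPM across male sham mice (median 10.9) and 1.80 to 4.84 across male SMC mice (median 3.09). In females it spanned 9.94 to 73.9 across sham mice (median 28.9) and 4.09 to 11.4 across SMC mice (median 7.77). SMC mice were mostly below sham mice of their sex, with a slight overlap in both. The log2 fold change over both sexes was -1.90 (SE 0.292, FDR 0.00296 in edgeR), and in females alone -2.10 (SE 0.403, FDR 0.0228 in edgeR), where Mt2 was the 1 listed gene to pass, against 0.341% of all genes. In males alone it was -1.69 (SE 0.424, FDR 0.128 in edgeR), and 0 listed genes passed there. In males 10 of 44 listed genes had an unadjusted p under 0.05, 9 of them lower, against 5.59% of all genes in that direction. In females 8 of 44 had one, all lower, against 1225 of 16408 genes in that direction.

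Mt1 had a log2 fold change over both sexes of -1.21 (SE 0.293, FDR 0.0283 in edgeR) and lay between 7.07 and 97.2 CPM in sham mice and between 5.40 and 26.6 in SMC mice. Sesn1 had one of -0.94 (SE 0.215, FDR 0.0215 in edgeR), with medians of 26.1 and 18.9 CPM in male sham and SMC and 51.0 and 27.9 in female sham and SMC. Without male sham replicate 4, which held 109 CPM, the value of Sesn1 was -0.63. Txn1 had a log2 fold change of -0.28 (SE 0.0670, FDR 0.0263 in edgeR), with medians of 18.6 and 14.1 CPM in male sham and SMC and 16.9 and 14.2 in female sham and SMC.

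Chac2 had a log2 fold change of -0.35 (SE 0.0844, FDR 0.0287 in edgeR), with all groups between 4.31 and 8.50 CPM. Ccs had one of -0.38 (SE 0.0978, FDR 0.0420 in edgeR), with medians of 5.20 and 3.996 CPM in male sham and SMC and 6.62 and 4.75 in female sham and SMC. Bach1 had one of -0.49 (SE 0.131, FDR 0.0480 in edgeR), and stayed under 0.05 in 9 of 24 fits that each left out 1 library, as did Ccs in 7 of 24. Without the pair of libraries low in slow fibre markers neither passed, at -0.35 for Ccs (FDR 0.0618) and -0.32 for Bach1 (FDR 0.0661).

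**Figure D5:**
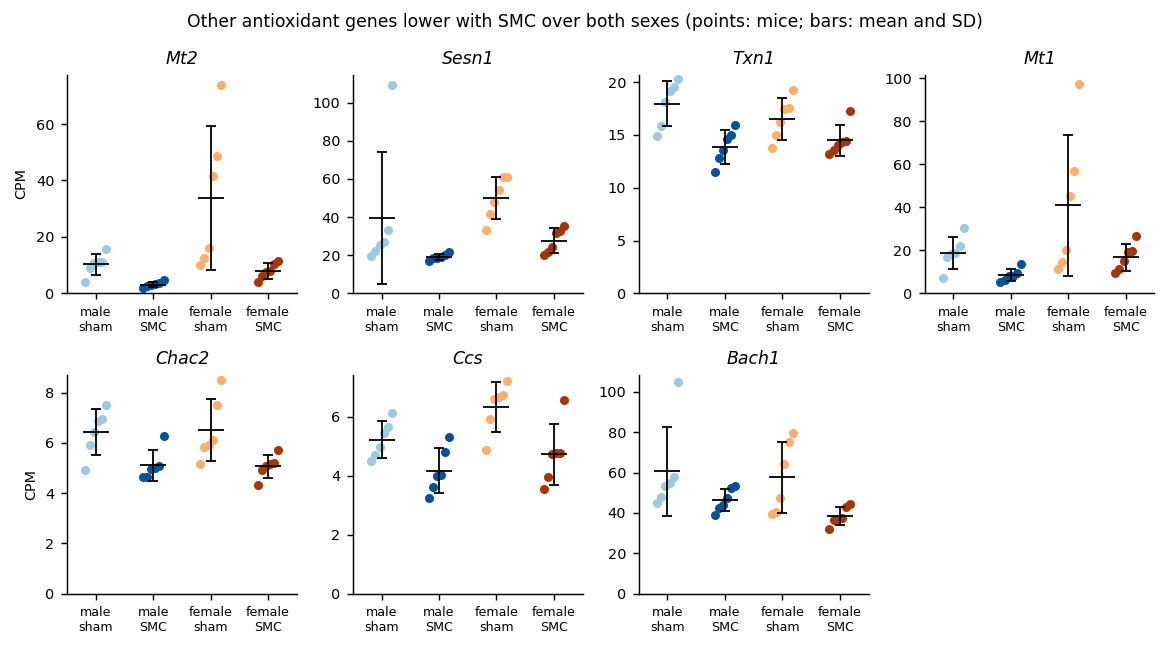
CPM of the 7 genes of the wider antioxidant list that were lower with SMC over both sexes, with 1 point per mouse, a bar at the group mean and error bars of 1 SD. Mt2 medians are 10.9 and 3.09 CPM in sham and SMC males and 28.9 and 7.77 in sham and SMC females, and male sham replicate 4 stands apart for Sesn1 and Bach1.

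Between the sexes, 6 of the 44 listed genes differed, 3 in each direction, against 4.93% of all genes. This count too is no test of the list, which was chosen with earlier results known. Mt2 was lower in males (log2 fold change -1.52, FDR 0.00208 in edgeR), as were Pgd, an NADPH-making enzyme of the pentose phosphate pathway (-0.26, FDR 0.0200), and Mt1 (-1.05, FDR 0.0365), the last of them outside the rule of 5. Mt1 passed between the sexes in 13 of 24 fits that each left out 1 library, and was -1.01 (FDR 0.0508) without the pair low in slow fibre markers. Msrb1, which repairs oxidized methionine, was higher in males (0.33, FDR 0.00211), as were Txnrd1, the cytosolic thioredoxin reductase (0.30, FDR 0.00498), and Glrx5, a glutaredoxin of mitochondrial iron-sulfur assembly (0.27, FDR 0.0265). No listed gene passed for a sex difference in its response to SMC, and 1 had an unadjusted p under 0.05, against 5.13% of all genes.

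A pair of listed genes was looked at after their values were seen, because one restores peroxiredoxins and the other encodes NRF2. Srxn1, the sulfiredoxin that reactivates overoxidized peroxiredoxins, had medians of 26.7 and 17.8 CPM in male sham and SMC and 14.99 and 17.8 in female sham and SMC. Its log2 fold change was -0.70 in males (SE 0.200, FDR 0.187 in edgeR), and its interaction was -0.81 (SE 0.283, FDR 0.926 in edgeR). Nfe2l2, which encodes NRF2, had a log2 fold change of -0.38 in males (SE 0.136, FDR 0.291 in edgeR), or -0.22 without male sham replicate 4.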

How the data were processed

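Total RNA of the gastrocnemius muscle was depleted of ribosomal RNA and made into strand-specific libraries, 1 per mouse. The submitters' processing notes name cutadapt 1.16, STAR 2.7.9a, featureCounts 1.6, DESeq2 1.34.0 and the GRCm39 (mm39) build. The strand setting and the annotation release are not given in the sources used here. The authors deposited raw read counts per Ensembl gene, with no normalization, for 24 mice. Symbols were taken from GENCODE M21 for 52083 of 55416 genes, and 0.361% of counts fell on genes with none.

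The labels gave each library its sex and treatment, and so its group. Counts were filtered by filterByExpr, which kept 16408 genes, scaled by TMM and fitted by the edgeR 4.0.16 quasi-likelihood test in R 4.3.3 with 1 mean per group. Tests were two-sided, with Benjamini-Hochberg adjustment over all genes tested and a threshold of 0.05. CPM values use TMM library sizes, and CPM per kb divides by the merged length of all annotated exons of the gene in GENCODE M21. The p-values measure the spread between these mice. Alternatives were DESeq2 1.42.0, RLE factors, at least 10 counts in every sample, no filter and limma 3.58.1 voomWithQualityWeights. Others were slow fibre and red blood cell covariates, 1 sex alone, each library left out, and both libraries low in slow fibre markers left out. Values within 1 housing are contrasts in the fit on all 24 libraries. The adipocyte and fibroblast covariates were added after seeing the data. The script was tested on simulated data.

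The members and lists were chosen with earlier results of these data known. Members named are the 10 of lowest FDR under 0.05 per comparison, the 8 of lowest unadjusted p under 0.05 per SMC comparison, and the member of each role with the highest level per kilobase. Of the wider antioxidant list, the 5 of lowest FDR per comparison are named. Sex labels were checked with sex-linked genes, and 60 pairs of libraries within groups were compared, with a smallest chi-square per degree of freedom of 10.4.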

Additional observations from a re-analysis of the deposited data

Results flagged for a closer look

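Single mice stood far from the other 5 of their group in 19 of 136 groups of 6 that were looked at, over 34 named genes. Chance alone flags about 1 in 20 groups, or 6.8 of 136, and the genes are not independent. Male sham replicate 4 gave 7 of the 19, being highest for Sesn1 (109 CPM, others 19.6 to 33.4), Bach1 (105 CPM, others 45.0 to 57.8), Txnrd1 (102 CPM, others 68.5 to 79.5), Sod1 (84.9 CPM, others 52.7 to 62.7), Gsr (31.2 CPM, others 17.2 to 22.3) and Gclm (28.9 CPM, others 13.997 to 17.5), and lowest for Sod2 (194 CPM, others 228 to 246). Its slow fibre markers summed to 86.4 CPM, and the part this plays was not tested.

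Female sham replicate 7, the other library low in slow fibre markers, was lowest for Cat (45.1 CPM, others 74.9 to 91.8) and highest for Gstm2 (56.0 CPM, others 29.4 to 38.2) and Gstp1 (56.8 CPM, others 40.0 to 44.8). Female sham replicate 8 was lowest for Sod2 (151 CPM, others 215 to 237) and highest for Pgd (17.9 CPM, others 12.8 to 14.2), and female sham replicate 10 was highest for Gpx4 (109 CPM, others 97.1 to 102). Female SMC replicate 23 was highest for Gstm2 (54.6 CPM, others 36.0 to 41.2) and Msrb1 (53.5 CPM, others 46.7 to 48.8), replicate 21 highest for Txn1 (17.2 CPM, others 13.2 to 14.5), and replicate 24 lowest for Gstt3 (0.872 CPM, others 1.62 to 1.84). Male sham replicate 1 was highest for Mgst1 (22.8 CPM, others 12.9 to 15.1), and male SMC replicate 15 highest for Chac2 (6.27 CPM, others 4.64 to 5.06).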

How the results depend on the processing

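No paired analysis was possible because the labels give each library a number of its own and no 2 groups share one. The counts of members called were 0 under every alternative run for SMC in males, in females and for the interaction. The count of 8 between the sexes became 4 with no filter, 5 with the red blood cell covariate, 5 with the adipocyte covariate, 4 in sham mice only and 3 in SMC mice only. It lay between 5 and 9 when each library was left out, and was 5 without female SMC replicate 21. The count of 0 for SMC over both sexes became 2 in DESeq2, and 1 each with the slow fibre, adipocyte and fibroblast covariates. It lay between 0 and 2 when each library was left out, and was 2 without male sham replicate 5. The counts in 1 housing are contrasts of 6 males with 6 females in the fit on all 24 libraries. The cause of the other moves was not tested.

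Log2 fold changes near 0 turned sign. Cat in females was -0.081 without the pair of libraries low in slow fibre markers, -0.024 with voom weights, -0.14 with the slow fibre and -0.055 with the red blood cell covariate, and -0.081 to 0.13 when each library was left out. Gstm1 in males was 0.036 without that pair, 0.034 with the slow fibre covariate and -0.094 to 0.036 when each library was left out. Gstp1 in males was -0.0016 in DESeq2, -0.0021 with RLE factors, -0.010 with no filter, -0.0037 with the red blood cell and -0.0056 with the fibroblast covariate, -0.0045 in males only, and -0.045 to 0.093 when each library was left out. With the fibroblast covariate Gsr in females was -0.043 and Gstp1 in females -0.027, and with the red blood cell covariate Mgst3 in females was -0.0027. When each library was left out, Mgst3 in females lay between -0.010 and 0.075 and Prdx3 in males between -0.091 and 0.0023. Low counts limit Mgst2 and Gsta3.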
